A study of Mus musculus with 6 samples.

Results

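The genes described here are the phospholipid flippases of mouse small intestinal organoids: Atp8b5, Atp8a1, Atp8b1, Atp8b2, Atp9a, Atp9b, Atp10b, Atp11a, Atp11b and Tmem30a. They are 10 of the 55416 genes counted, taken by gene symbol, and all 10 were among the 18459 genes whose mean level was high enough to test. Atp8b5 leads the list because its difference between treatments was already known from these libraries, so the LDL and PBS values of the members are given as a description and no test is read from them. Crypts from the duodenum and jejunum of 3 mice, labelled as C57BL/6 strain and WT genotype, were grown as organoids and received low-density lipoprotein (LDL, 50 μg/ml) or the vehicle PBS for 5 days. Each mouse gave 1 LDL-treated and 1 PBS-treated culture, both in growth medium and both sequenced as separate RNA-Seq libraries. The ages of the mice were not given in the sources used here. The cultures are epithelium grown in a matrix, without the stroma, vessels or immune cells of the gut.

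Flippases are P4-ATPases, membrane pumps that use ATP to move phospholipids from the outer or luminal leaflet of a membrane to its cytosolic leaflet. By doing so they keep phosphatidylserine and phosphatidylethanolamine on the cytosolic side of the plasma membrane and help to bend membranes during vesicle budding. Most of them leave the endoplasmic reticulum only with a small partner protein of the CDC50 family, whose most widely used member, CDC50A, is the product of Tmem30a. In the intestine ATP8B1 is the best known flippase, because loss of its human counterpart causes an inherited cholestasis that also affects the gut. ATP8B5, also called FetA, was described in mouse germ cells, where it sits in membranes of the developing acrosome.

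The libraries held 22061545 to 31073360 reads on genes. The LDL-treated library of mouse 1 stood apart from the others: a ribosomal RNA gene, Rn18s-rs5, took 7.62% of its reads, whereas the leading gene of the remaining libraries was mitochondrial and took 2.60% to 3.32%. This library also had reads on the most genes, 35781, against 29285 to 32751 in the others. The epithelial markers (8 genes, among them Epcam, Cdh1 and Vil1) summed to 88060 to 91866 normalized counts in the PBS group and to 98467 to 130540 in the LDL group. The keratins Krt8, Krt18 and Krt19 had log2 fold changes of 0.79, 0.93 and 0.58. Krt8 and Krt18 were called higher (limma adjusted p under 0.05 and over 1.5-fold) when the mouse was a block of the fit. That fit called 5.68% of all genes higher. By contrast, Epcam (-0.12) and Cdx1 (-0.57) were lower with LDL in 3 of 3 mice and not called. Markers of stroma, endothelium and immune cells (15 genes) summed to 188 to 225 with PBS and 117 to 212 with LDL. Of them 11 were under the mean needed for testing, and none of the 4 tested was called. Vim, Pdgfrb and Pecam1 (log2 fold changes -0.56, -0.94 and -0.70) had all LDL values below all PBS values, as did 12.3% of all genes. Acta2 (0.05) overlapped. Spermatid markers (8 genes) were close to absent, with sums of 1.67 to 14.6 in any library and no read on Tnp1 or Akap4.

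Atp8b5 (ENSMUSG00000028457) lies on the plus strand at chr4:43267135-43373833 of GRCm39, and Atp11a (ENSMUSG00000031441) on the plus strand at chr8:12807003-12918729. They are the members with the lowest and the highest LDL-to-PBS ratio, and the 250 bases upstream of their canonical transcription starts are shown for that reason. Capitals mark CpG dinucleotides.
Atp8b5, chr4:43266885-43267134, plus strand: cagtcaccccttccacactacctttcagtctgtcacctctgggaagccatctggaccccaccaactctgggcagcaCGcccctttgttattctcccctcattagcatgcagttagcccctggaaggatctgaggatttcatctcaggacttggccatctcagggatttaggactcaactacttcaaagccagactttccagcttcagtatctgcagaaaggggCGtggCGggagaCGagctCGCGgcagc
Atp11a, chr8:12806753-12807002, plus strand: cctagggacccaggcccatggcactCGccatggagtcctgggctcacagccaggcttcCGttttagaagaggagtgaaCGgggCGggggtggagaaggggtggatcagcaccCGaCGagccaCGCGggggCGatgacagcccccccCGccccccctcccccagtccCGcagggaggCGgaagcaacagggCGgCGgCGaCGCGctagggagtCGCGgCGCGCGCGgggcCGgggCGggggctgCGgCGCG
The Atp8b5 window held 6 CpG dinucleotides with a GC content of 54.8%, and no annotated exon fell in it. By contrast, the Atp11a window held 28 with a GC content of 74.8% and overlapped exons of Gm33587, a long noncoding RNA on the minus strand. The median over the same windows of 21770 protein-coding genes was 8, of which 41.3% had fewer CpG than Atp8b5 and 94.7% had fewer than Atp11a. CG, read on either strand, was found in 92.6% of all these windows. The letters TATAAA, searched on both strands and not overlapping CG, were in 11.9% of them. Neither Atp8b5 nor Atp11a had TATAAA. Atp10b did, 132 bases before its start, in a window with 1 CpG. The other members read in this way had 7 (Atp8b2), 20 (Atp8a1), 21 (Tmem30a), 25 (Atp11b) and 44 (Atp9a) CpG dinucleotides, and Atp8b1 and Atp9b were not analysed here. These are properties of the reference sequence and were not tested against the treatment.

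Atp8b5 was lower with LDL in every mouse. Its normalized counts, which are read counts divided by a size factor per library, were 419, 655 and 291 in the PBS-treated organoids of mice 1, 2 and 3. They were 34.2, 78.2 and 26.8 in the LDL-treated organoids of the same mice. The lowest PBS value was above the highest LDL value, and mouse 2 was the highest and mouse 3 the lowest in both groups. PBS exceeded LDL 12.3-fold, 8.37-fold and 10.9-fold in mice 1, 2 and 3. The group means were 455 ± 184 with PBS and 46.4 ± 27.8 with LDL (SD, n = 3 mice). The LDL values rested on 28, 86 and 32 reads and the PBS values on 410, 527 and 358. The log2 fold change, fitted on log2(normalized count + 1), was -3.34 with an SE of 0.43, the third lowest of the 18459 genes tested. With the mouse as a block the SE was 0.16. In bulk RNA, fewer cells that express Atp8b5 and less Atp8b5 RNA per cell cannot be told apart.

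Genes were called at a Benjamini-Hochberg adjusted p-value under 0.05 from limma and a change of more than 1.5-fold. On this rule Atp8b5 was the only member called lower and no member was called higher (4 had an unadjusted p under 0.05, beside 19.7% of all genes), in a fit that called 0.395% of all genes lower and 0.878% higher. With the mouse as a block, or in DESeq2, Atp8b5 was again called lower and Atp11a was called higher, where limma with the block called 3.46% of all genes lower and 5.68% higher, and DESeq2 1.89% and 4.58%. In edgeR Atp8b5 alone was called, with 0.379% of all genes lower and 1.01% higher. Over the 10 members the median log2 fold change was -0.06, beside -0.02 over all genes tested. The members were chosen on this contrast, so nothing is read from these counts. Without the Rn18s-rs5-rich library the log2 fold change of Atp8b5 was -3.20 and its call held. The call was lost, at log2 fold changes of -3.03, -3.36, -3.04 and -3.62, when mouse 3 lost its LDL library, or mouse 1, 2 or 3 its PBS library, in that order. It was also lost without both libraries of mouse 3 (-3.31) or of mouse 1 (-3.22).

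**Figure D1:**
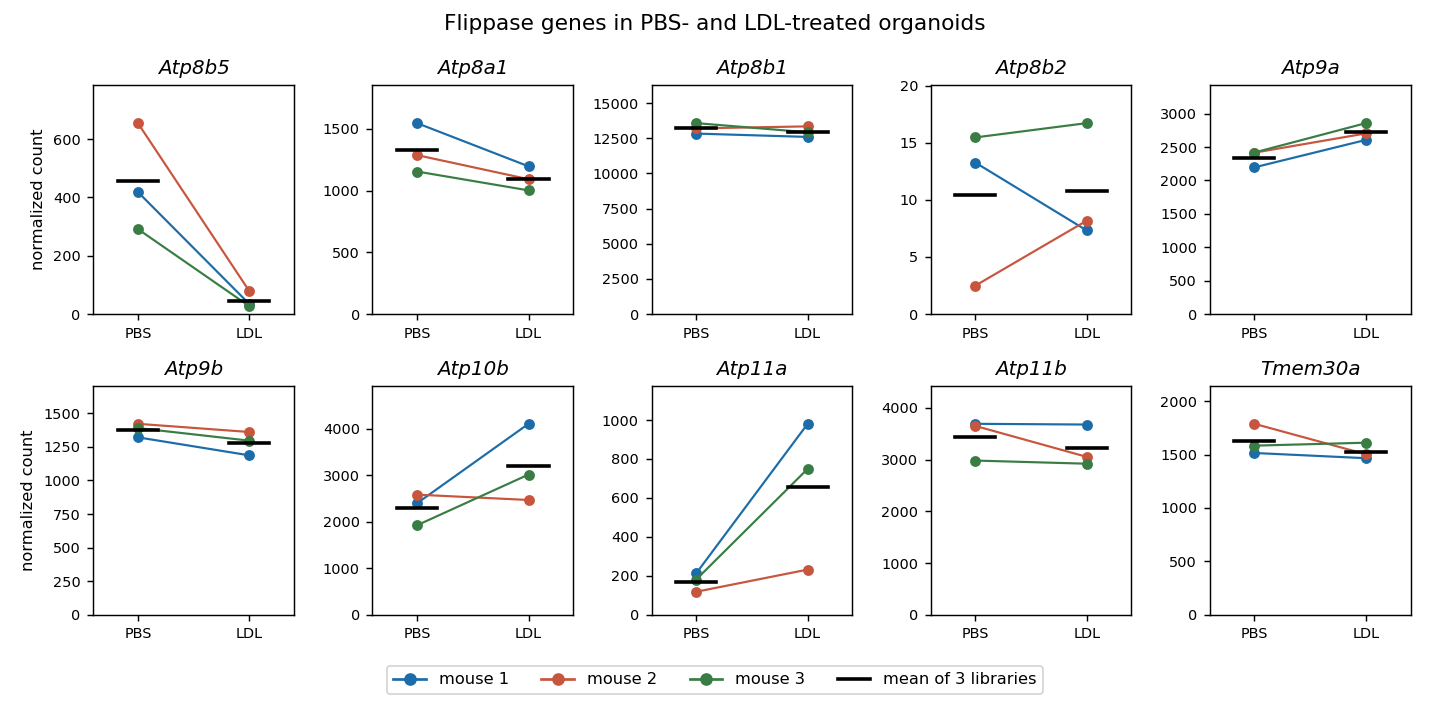
Normalized counts of the 10 flippase genes (vertical axis, from 0, its scale set per gene) in PBS- and LDL-treated organoids; each colored line joins the 2 libraries of 1 mouse and the black bar is the mean of 3 libraries. The Atp8b5 lines drop in all mice, from 291 to 655 down to 26.8 to 78.2, the Atp11a lines climb in all mice, and the Atp8b1, Atp9b and Tmem30a lines are nearly level.

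Of the relatives of Atp8b5 in the ATP8B branch, Atp8b1 (chr18:64662038-64794338, minus strand) was the most abundant flippase gene per length of transcript. Its normalized counts were 12834, 13202 and 13578 with PBS and 12597, 13347 and 12926 with LDL in mice 1, 2 and 3. The groups overlapped, and the ratio of LDL to PBS lay between 0.952 and 1.01 within a mouse. This gave a log2 fold change of -0.03 with an SE of 0.09. Atp8b2 (chr3:89846786-89870815, minus strand), which encodes a phosphatidylcholine flippase of the plasma membrane, was at the edge of detection. Its normalized counts were 13.3, 2.49 and 15.5 with PBS and 7.32, 8.18 and 16.7 with LDL. The mean of 10.6 barely passed the minimum of 10 used for testing, and the mice went in different directions, with ratios of LDL to PBS of 0.551, 3.29 and 1.08.

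Atp8a1 (chr5:67775481-68004883, minus strand) encodes a phosphatidylserine flippase of recycling endosomes and the Golgi. It had 1547, 1287 and 1155 normalized counts with PBS and 1197, 1092 and 1002 with LDL. LDL was lower in each of the 3 mice, by 1.29-fold, 1.18-fold and 1.15-fold, but the groups overlapped. The log2 fold change was -0.27 with an SE of 0.13, and the gene was not called with or without the mouse block.

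Atp11a and Atp11b belong to the ATP11 branch. Atp11a encodes a flippase of the plasma membrane for phosphatidylserine and phosphatidylethanolamine, and it is cleaved by caspases in dying cells. Its normalized counts were 212, 118 and 181 with PBS and 981, 232 and 749 with LDL in mice 1, 2 and 3. Every LDL value was above every PBS value, although mouse 2 with LDL, at 232, was only just above mouse 1 with PBS. The ratio of LDL to PBS was 4.62, 1.96 and 4.15 within a mouse, so the smallest difference was in mouse 2. Group means were 654 ± 383 with LDL and 170 ± 48.0 with PBS (SD, n = 3 mice). The log2 fold change was 1.74 with an SE of 0.50 without the mouse block and 0.22 with it, which ranked 348 from the highest of the genes tested. Leaving out mouse 1 with LDL gave 1.33, and leaving out mouse 2 with LDL gave 2.37 and a call.

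Atp11b (chr3:35808205-35910427, plus strand), whose product works in recycling endosomes, had 3690, 3650 and 2980 normalized counts with PBS. With LDL it had 3676, 3051 and 2919. LDL was lower in 3 of 3 mice, but by less than the range among mice, and the values of mouse 1 were nearly equal. Its log2 fold change was -0.10 with an SE of 0.13.

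Atp10b (chr11:43040704-43153112, plus strand) encodes a flippase of late endosomes and lysosomes that carries glucosylceramide and phosphatidylcholine. Its normalized counts were 2395, 2580 and 1922 with PBS and 4102, 2465 and 3012 with LDL. LDL exceeded PBS in mice 1 and 3, by 1.71-fold and 1.57-fold, and not in mouse 2, where the ratio was 0.956. The groups overlapped through mouse 2. The log2 fold change was 0.45 with an SE of 0.19, and among the alternatives run the gene was called, at 0.62, only when mouse 2 with LDL was left out.

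ATP9A and ATP9B differ from the other catalytic proteins in that they leave the endoplasmic reticulum without a CDC50 partner. Atp9a (chr2:168476168-168584329, minus strand), which acts in endosomal recycling, had 2196, 2416 and 2418 normalized counts with PBS and 2607, 2704 and 2858 with LDL. All LDL values were above all PBS values, and the ratio of LDL to PBS was 1.12 to 1.19 in the 3 mice. Its log2 fold change of 0.22 (SE 0.087) was below the fold threshold. Atp9b (chr18:80777265-80977316, minus strand), a protein of the trans-Golgi network, had 1321, 1422 and 1390 with PBS and 1187, 1361 and 1296 with LDL. It was lower with LDL in 3 of 3 mice, by 1.04-fold to 1.11-fold, with overlap between the groups.

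Tmem30a (chr9:79675532-79700853, minus strand), the gene of the partner CDC50A, had 1515, 1788 and 1584 normalized counts with PBS and 1466, 1503 and 1611 with LDL. The groups overlapped and 1 of 3 mice was higher with LDL. The log2 fold change was -0.09 with an SE of 0.096. Of the 10 genes, 2 (Atp9a and Atp11a) had all LDL values above all PBS values, and 1 (Atp8b5) had all below. Over all genes tested these patterns were found in 11.9% and 12.3%.

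**Figure D2:**
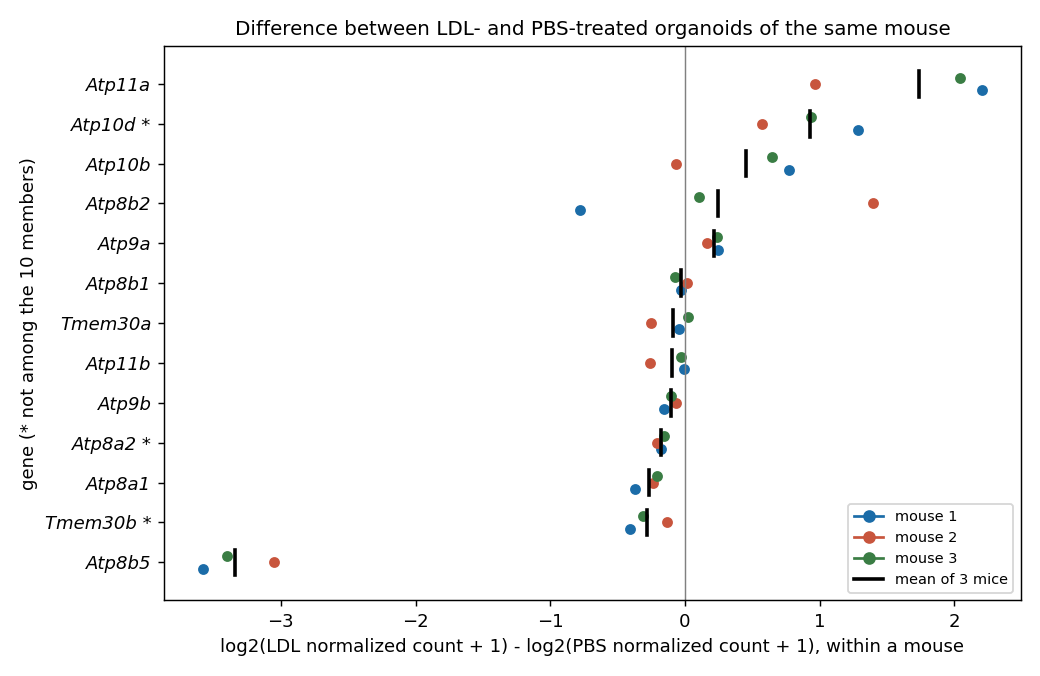
Difference in log2(normalized count + 1) between the LDL- and PBS-treated organoids of a mouse (horizontal axis) for the flippase genes and further tested genes of the family (vertical axis, an asterisk marks a gene outside the 10); points are mice 1, 2 and 3 and the black tick is their mean. Atp8b5 lies between -3.58 and -3.05, Atp11a between 0.97 and 2.20, and most of the others close to 0.

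Levels were compared between genes after division by the length of the canonical transcript in kilobases. In PBS-treated organoids Atp8b1 led with 1965 ± 55.4 normalized counts per kilobase (SD, n = 3 mice), above all other members in every library. Atp11b (697 ± 80.8) and Atp9a (639 ± 34.8) followed with overlapping values, and then Tmem30a (429 ± 37.4), Atp10b (331 ± 48.8) and Atp9b (253 ± 9.45) without overlap between neighbors. Atp8a1 (158 ± 23.7) and Atp8b5 (101 ± 41.0) overlapped, since mouse 2 had more Atp8b5 per kilobase, at 146, than mouse 3 had Atp8a1, at 137. Atp11a (22.5 ± 6.35) and Atp8b2 (1.85 ± 1.23) were the lowest. So with PBS the organoids held Atp8b5 at a level per length above that of Atp11a in every mouse.

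With LDL the positions of these genes were exchanged. Atp11a stood at 86.5 and Atp8b5 at 10.3 normalized counts per kilobase, so that Atp8b5 ranked above only Atp8b2 (1.91). The remaining genes ran from Atp8b1 at 1928 through Atp9a at 742, Atp11b at 652, Atp10b at 459, Tmem30a at 402 and Atp9b at 235 to Atp8a1 at 131. When all annotated exons were joined in place of the canonical transcript, the PBS order was identical, and in the LDL order Atp10b moved from the fourth to the second place. This other length was chosen after the data had been seen.

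**Figure D3:**
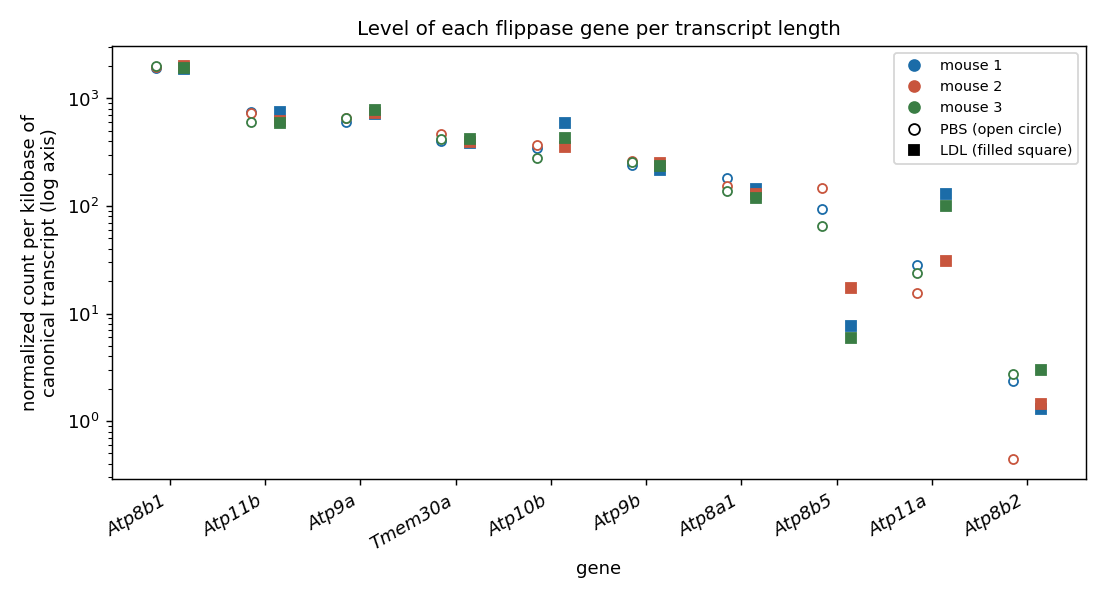
Normalized counts per kilobase of canonical transcript (vertical axis, log scale) of the 10 flippase genes (horizontal axis, ordered by their PBS mean); open circles are PBS-treated and filled squares LDL-treated organoids, colored by mouse. Atp8b1 lies between 1875 and 2021 in all libraries, and the squares lie well below the circles for Atp8b5 and above them for Atp11a.

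Atp8b5 was a small part of the flippase transcripts even with PBS. Of the summed level per kilobase of the 9 catalytic genes it made up 1.60% to 3.38% with PBS and 0.142% to 0.421% with LDL. The share of Atp11a was 0.362% to 0.677% with PBS and 0.743% to 2.93% with LDL. Atp8b1 contributed 45.6% to 49.96% with PBS and 42.4% to 48.1% with LDL. The sum itself was 4045 to 4310 with PBS and 4126 to 4420 with LDL, which overlap.

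No stretch of 100 bases of a canonical transcript was shared between any of the flippase or CDC50 genes. Stretches shared with other genes came from antisense or overlapping noncoding RNAs. They covered 2.89% of the Atp8b5 transcript (Gm52698), 1.97% of Atp11a (Gm15347 and Gm15350), 13.4% of Tmem30a (4930429F24Rik), 6.67% of Atp10b (Gm12144, Gm12146, Gm12147 and Gm72970), 1.78% of Atp8b1 and 1.23% of Atp8b2. Gm12144, antisense to Atp10b over 449 exonic bases, had 24.4 to 51.2 normalized counts and was the most abundant of these partners. Gm12146 had 5.70 to 14.2, 4930429F24Rik at most 9.77, Gm15347 and Gm15350 at most 3.66, and Gm12147 no read. Gm52698, the partner of Atp8b5, has no row among the counted genes, and neither has Gm72970. Exons of Atp8a1 also overlap those of Shisa3 on the other strand by 138 bases, and Shisa3 had 7.28 to 19.5 normalized counts. The strand setting of the counting was not given in the sources used here.

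Beyond the 10 members, the family has 8 further genes, and 4 of them passed the mean filter. None was called by limma, DESeq2 or edgeR without the mouse block. In limma 2 had an unadjusted p under 0.05, beside 19.7% of all genes. With the block 1 was called higher by limma, beside 5.68% of all genes. That gene was Atp10d, a glucosylceramide flippase, with 22.5, 18.6 and 23.6 normalized counts with PBS and 56.1, 28.2 and 46.0 with LDL (log2 fold change 0.93, limma adjusted p = 0.156, and 0.0457 with the block). Tmem30b, the gene of the partner CDC50B, had 2716, 2603 and 2775 with PBS and 2052, 2374 and 2240 with LDL. The groups of Tmem30b did not overlap, and its log2 fold change of -0.28 had a limma adjusted p of 0.144. At 902 normalized counts per kilobase with PBS, Tmem30b exceeded Tmem30a. Atp8a2 had 749 ± 74.2 and 848 ± 83.9 (SD, n = 3 mice; limma adjusted p = 0.445). Atp8b3, Atp8b4, Atp10a and Tmem30c were below the filter, with at most 14.6 normalized counts in any library. Atp8b3 had no read in any PBS library and 2, 1 and 3 reads in the LDL libraries, which is within the limit of 3 reads that a count of 0 allows, for counting error only.

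Scramblases let lipids cross in both directions, and floppases move them outward. Of 18 such genes, 14 were tested, 1 was called higher and none lower by limma, beside 0.878% and 0.395% of all genes, and their median log2 fold change was 0.17. The called gene was Vmp1, a scramblase of the endoplasmic reticulum with a role in autophagy, with 1840, 1798 and 1979 normalized counts with PBS and 2987, 2864 and 3362 with LDL. Its log2 fold change was 0.71 with a limma adjusted p of 0.0191. With the mouse block Xkr9, a scramblase switched on by caspases (0.75, limma adjusted p = 0.120 without and 0.0177 with the block), and Abcc1, an exporter with floppase activity (0.69, limma adjusted p = 0.121 and 0.00673), were called as well, which makes 3 of 14 beside 5.68% of all genes. Plscr1 (0.57, limma adjusted p = 0.0345) passed the p threshold but not 1.5-fold in limma, and it was called higher by DESeq2 and edgeR. DESeq2 called 4 of these genes higher (Plscr1, Xkr9, Vmp1 and Abcc1), and edgeR called 2 (Plscr1 and Vmp1). The most abundant of the others, Ano6, a calcium-activated scramblase, had 4517, 6286 and 4050 with PBS and 4227, 4879 and 3399 with LDL (-0.24, limma adjusted p = 0.548).

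Genes that make the lipids on which flippases act were not called by limma with or without the mouse block, nor by DESeq2 without it. Of 17 genes of phospholipid head-group synthesis 16 were tested, 6 had an unadjusted p under 0.05 (19.7% of all genes did) and the median log2 fold change was 0.06. Pcyt1a, the regulated enzyme of phosphatidylcholine synthesis, had 845, 990 and 866 normalized counts with PBS and 1398, 1312 and 1290 with LDL (0.57, limma adjusted p = 0.0404). Cdipt, the phosphatidylinositol synthase, had 898, 969 and 964 with PBS and 1389, 1244 and 1463 with LDL (0.53, limma adjusted p = 0.0482). Both were under 1.5-fold in limma, and edgeR called Pcyt1a alone higher. Ptdss1 and Ptdss2, the phosphatidylserine synthases, had log2 fold changes of -0.01 and 0.19 with limma adjusted p-values of 0.980 and 0.405. Among 11 endosomal partners of flippases (such as Mon2, Dop1a, Arfgef1 and Ehd1) none was called by limma with or without the block, or by DESeq2 or edgeR, 1 had an unadjusted p under 0.05, and the median log2 fold change was -0.06. That gene was Ehd1, an endosomal membrane-shaping protein, at 0.30 with a limma adjusted p of 0.131. Over the 4 groups of relatives and partners, the single call, Vmp1, was lost when mouse 3 lost its LDL library, or any mouse its PBS library. When mouse 2 with LDL was left out, 5 genes were called higher and 1 lower.

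Over the 6 libraries, the profile most like that of Atp8b5 was sought among 11938 tested genes with a mean of at least 100. The closest by Pearson correlation of log2(normalized count + 1) were 1700019D03Rik (r = 0.999), Moxd1 (0.997), Uaca (0.996), Ksr1 (0.996) and Reps2 (0.995). These values describe 6 libraries that share 2 treatments and 3 mice. The correlation chose the 5 genes, so their shared pattern, lower with LDL and highest in the PBS-treated organoids of mouse 2, is a description and no test is given for it. Their log2 fold changes were -1.74 (Moxd1), -0.90 (1700019D03Rik), -0.70 (Reps2), -0.63 (Uaca) and -0.54 (Ksr1), all smaller in size than that of Atp8b5. Moxd1, of the 5 the nearest to Atp8b5 in log2 fold change, had 283, 408 and 233 normalized counts with PBS. With LDL it had 84.2, 125 and 67.7.

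The high values of mouse 2 were not particular to Atp8b5. Lct, the lactase of the enterocyte brush border, had 990, 2781 and 813 normalized counts with PBS and 207, 1220 and 207 with LDL. Sucrase-isomaltase (Sis) had 8006, 19016 and 7625 with PBS and 6372, 17861 and 6692 with LDL, and aminopeptidase N (Anpep) had 7652, 14700 and 6529 with PBS and 5470, 12578 and 4532 with LDL. The enterocyte markers did not go 1 way with LDL: 4 of 10 had a negative log2 fold change (Lct, Sis, Anpep and Slc5a1) and 6 a positive one. Alpi, intestinal alkaline phosphatase, was called higher with LDL (1028, 1721 and 1426 with PBS, 4623, 6310 and 7268 with LDL; log2 fold change 2.13, limma adjusted p = 0.00828). Of the 10 enterocyte markers 1 was called higher and none lower, beside 0.878% and 0.395% of all genes. With the mouse block 4 were called higher (Alpi, Apoa4, Apob and Fabp2) and Lct lower. That fit called 5.68% of all genes higher and 3.46% lower. The 10 markers summed to 39455 to 73393 with PBS and 53046 to 83217 with LDL.

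Among the lists of secretory and stem cell markers, only the goblet and Paneth cell sums did not overlap between the treatments. Goblet cell markers (8 genes) summed to 52427 to 57386 with PBS and 30355 to 36819 with LDL. Limma called Fcgbp, Spink4 and Agr2 lower and Clca1 higher, and with the mouse block Tff3 lower as well. Without the block, edgeR did not call Fcgbp. Over all genes limma called 0.395% lower and 0.878% higher, and 3.46% and 5.68% with the block. DESeq2 without the block called 1.89% of all genes lower and 4.58% higher. Paneth cell markers (9 genes) summed to 17814 to 28764 with PBS and 13809 to 16915 with LDL, with no call by limma. Of these genes 5 had an unadjusted limma p under 0.05, beside 19.7% of all genes. With the mouse block and in DESeq2, 2 were called higher (Mmp7 and Pla2g2a) and 3 lower (Defa17, Defa24 and Itln1). Enteroendocrine markers (9 genes) overlapped, at 9913 to 15426 and 7692 to 11951, and tuft cell markers (8 genes) did too, at 285 to 377 and 205 to 528. Stem cell markers (7 genes) summed to 38718 to 58848 with PBS and 35034 to 42472 with LDL, a sum in which Slc12a2, at 22577 to 27623, was the largest part. None of these 3 lists had a call by limma or edgeR without the block. In limma 2, 1 and 4 of their genes had an unadjusted p under 0.05, beside 19.7% of all genes. With the block in limma 2 enteroendocrine genes (Gip and Tac1) and 1 tuft gene (Pou2f3) were called lower. Among the stem cell genes that fit called Ascl2 (log2 fold change 1.22) and Tnfrsf19 (1.51) higher and Olfm4 (-1.17) and Smoc2 (-0.79) lower. DESeq2 without the block called Tac1 and Smoc2 lower and Ascl2 and Tnfrsf19 higher. The part of any of these differences in the values of Atp8b5 or Atp11a was not tested.

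**Figure D4:**
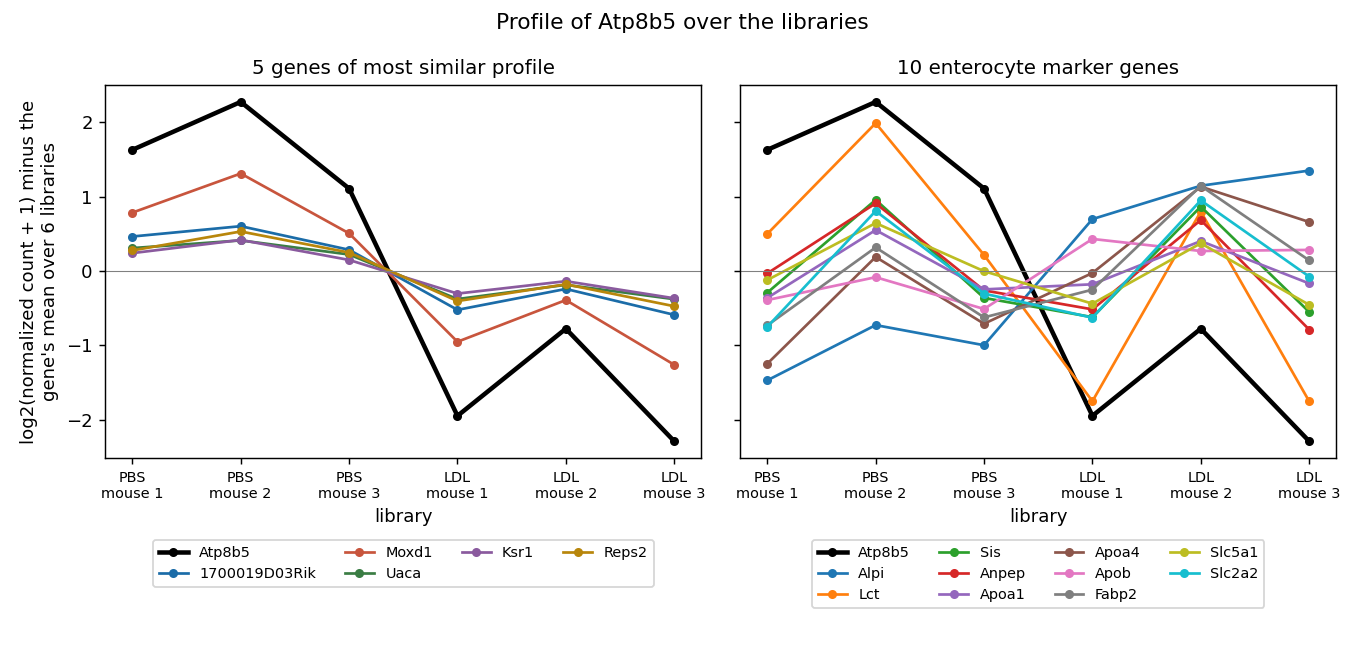
log2(normalized count + 1) minus the mean of the gene over 6 libraries (vertical axis) in each library (horizontal axis), for Atp8b5 (black) with the 5 genes of most similar profile (left) and with the 10 enterocyte markers (right); lines join values of 1 gene. The genes on the left are above 0 in the PBS-treated and below 0 in the LDL-treated libraries, whereas the enterocyte markers part, with Alpi above 0 in the LDL-treated libraries and Lct at its highest in the PBS-treated organoids of mouse 2.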

How the data were processed

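The RNA-Seq data comprised 6 libraries, from LDL- and PBS-treated organoids of 3 mice. Per the labels and the methods of the study, libraries were made with a stranded kit after removal of ribosomal RNA, and reads were aligned to GRCm39 with STAR and counted per gene with featureCounts. The signal values deposited by the authors are normalized counts, that is, counts divided by 1 size factor per library, and each value was a whole number of reads within 0.01 (100% of values). Where a count was 0, counting error alone allowed up to 3 reads. Names, positions and canonical transcripts came from GENCODE M39 (GRCm39), in which 54749 identifiers were found and 667 were not, and 12377 genes had no read. Upstream sequences were read from the GRCm39 genome.

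Groups came from the treatment labels and mice from the animal identifiers. Normalized counts plus 1 were taken to log2 where the mean over libraries was 10 or more, and LDL was compared with PBS by limma 3.58.1 (trend, two-sided) in R 4.3.3, without a mouse term, since the study's methods state none. Benjamini-Hochberg adjustment covered all 18459 genes. The same animal identifier stands on both libraries of a replicate number, so the mice pair the samples. After removal of the treatment means, libraries of the same mouse correlated with r = 0.48, 0.42 and 0.46 across genes, and those of different mice with r between -0.37 and -0.08.

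The flippase genes and all gene lists, written by hand from general knowledge, were chosen with earlier results of these data known. The rule for naming covered the family genes, list members called with or without the block and up to 3 others by highest mean, the 5 genes of most similar profile and overlapping genes; not every gene of high mean or overlap is named. A few results are left out of the text. Other pseudocounts, filters, scalings, the mouse block, libraries left out, DESeq2 1.42.0 and edgeR 4.0.16 on the recovered reads were the alternatives. Omission of both mouse 1 libraries and the joined exon length were choices made after seeing the data. The fits were tested on simulated data. Python 3.11.15 (pandas 2.3.3, matplotlib 3.10.9) served for tables and plots.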

Additional observations from a re-analysis of the deposited data

How the results depend on the processing

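Depth limited the values of Atp8b2, which rested on 2 to 20 reads per library, and the LDL values of Atp8b5. The scalings moved the median log2 fold change of all genes from -0.02 to values between -0.04 and 0.00, and leaving out the filter moved it to 0.10. Of the 20 alternatives, 14 kept the call of Atp8b5, at log2 fold changes between -3.79 and -3.03 over all of them. Leaving out 1 library gave -3.79 to -3.03. Without both libraries of mouse 3 the value was -3.31 and without both of mouse 1 it was -3.22, neither called. Among the flippase genes, the count called higher went from 0 to 1 without a filter, with the mouse as a replicate block in limma, in DESeq2 with and without the block, and in edgeR with the block, and it ranged from 0 to 2 when 1 library was left out. The count called lower went from 1 to 0 without mouse 3 or mouse 1, and ranged from 0 to 1 when 1 library was left out. For the relatives and partners, 1 gene was called higher. This became 3 with upper-quartile scaling, quantile normalization or edgeR, 4 with the block, DESeq2 or no fold threshold, 5 with DESeq2 and the block, 6 with edgeR and the block, and 0 without mouse 3 or mouse 1, and was 0 to 5 with 1 library left out; the count called lower was 0 to 1. Over all genes, 162 called higher and 73 lower became 506 and 245 without a filter, 1048 and 639 with the block, 846 and 348 in DESeq2, 981 and 511 in DESeq2 with the block, 1171 and 588 in edgeR with the block, 17 and 2 without mouse 1, and 0 and 0 without mouse 3. With 1 library left out they were 18 to 1179 and 2 to 1133. The sign of Atp8b1 turned with quantile normalization (0.056), and that of Atp8b2 turned with quantile normalization (-0.11), when mouse 3 with LDL (-0.098) or mouse 2 with PBS (-0.47) was left out, within a range of -0.47 to 0.65 when 1 library was left out. Atp11a, not called in limma without the block, was called in 6 alternatives. The replicate block changed no other call among the flippase genes. The causes were not tested.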
